A study of Saccharomyces cerevisiae with 6 samples.

Results

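The 40 genes described here encode enzymes of purine, pyrimidine and one-carbon synthesis in the budding yeast Saccharomyces cerevisiae. They were chosen by name from the pathways. The array carried a named spot for 37 of them, among 5365 named genes in all, and 34 had a value on every hybridization. IMD4, URA2 and URA3 have no named spot and are not analysed here. By pathway, 17 genes belong to purine synthesis and salvage, 10 to pyrimidine synthesis and salvage, 8 to one-carbon metabolism, and 5 (PRS1 to PRS5) to the synthesis of phosphoribosyl pyrophosphate (PRPP), which purine and pyrimidine synthesis both consume. ADE3 was placed with the one-carbon genes by the enzyme it encodes.

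The exposed cells, of strain S288C, were treated with chloroacetaldehyde, a small reactive aldehyde that forms adducts on DNA bases and attacks thiol groups. The final dose was 25 ppm for 2 h, given at 25 °C to exponential YPD cultures that had reached an optical density of 1. RNA of the exposed cells carried Cy5, and RNA of cells of the same strain before treatment carried Cy3. There were 3 hybridizations from independent biological samples, called replicates 1, 2 and 3 here, and every array was read at high and at low laser power.

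Values are log2 ratios of exposed cells over cells before treatment, so 1 stands for 2-fold higher. Neither the logarithm's base nor the direction of the ratio is stated in the labels. Base 2 was assumed, and exposed over before is the likely direction because the exposed sample is listed as channel 1. Signs would all flip under the opposite direction. Both dyes stayed in place on every array and the exposed cells had grown for 2 h longer, so neither can be told apart from the exposure. Between 1737 and 6104 spots had a value per scan, and no signal intensities are given, so the number of arrays limits the precision. Errors are the SD between hybridizations (n = 3), and a ratio says nothing about whether a gene's own level is high or low.

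Cells build purines step by step on PRPP until inosine monophosphate (IMP) is made, and IMP is then turned into AMP or GMP. Pyrimidines are built as a ring first, which is then joined to PRPP to give UMP, the parent of UTP and CTP. Folate-bound one-carbon units, drawn from serine and glycine, supply carbons of the purine ring and of methionine. In budding yeast the factors Bas1 and Pho2 activate the ADE genes and several one-carbon genes when adenine is short, Gcn4 adds to this when amino acids are short, and Ppr1 activates URA genes when pyrimidines are short.

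None of the 34 genes with 3 values passed the test, which set the mean of the 3 log2 ratios against 0 across all 3642 genes measured on every hybridization (limma with Benjamini-Hochberg adjustment, threshold 0.05). The count was 0 of 34, and the adjusted p ran from 0.677 for URA6 to 0.998 for GCV2. Of all genes tested, 2 passed, or 0.0549% of those tested. At an unadjusted p under 0.05 there was 1 member of 34 by limma, URA6, which was lower. Of all genes 6.15% reached that level, 3.38% lower and 2.77% higher. The half-width of the 95% confidence interval had a median of 0.55 over all genes. Differences below that mostly could not reach an unadjusted p under 0.05. The adjusted threshold was stricter still, and URA6, with a mean of -0.65, did not pass it.

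As a group the genes lay lower on replicate 1 than on replicate 3. On replicate 1, 25 of 34 lay below 0, on replicate 2 there were 18, and on replicate 3 there were 12. Over all genes tested the shares below 0 were 57.2%, 50.5% and 52.1% on replicates 1, 2 and 3. The median of the 34 genes was -0.39 on replicate 1, -0.05 on replicate 2 and 0.17 on replicate 3, against -0.09, -0.01 and -0.02 for all genes. The median of their means was -0.04, which equals that of all genes to 2 decimals. The highest and the lowest hybridization lay more than 1 apart in 15 of 34 genes, where 29.5% of all genes did so, a measure chosen after the values were seen.

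**Figure D1:**
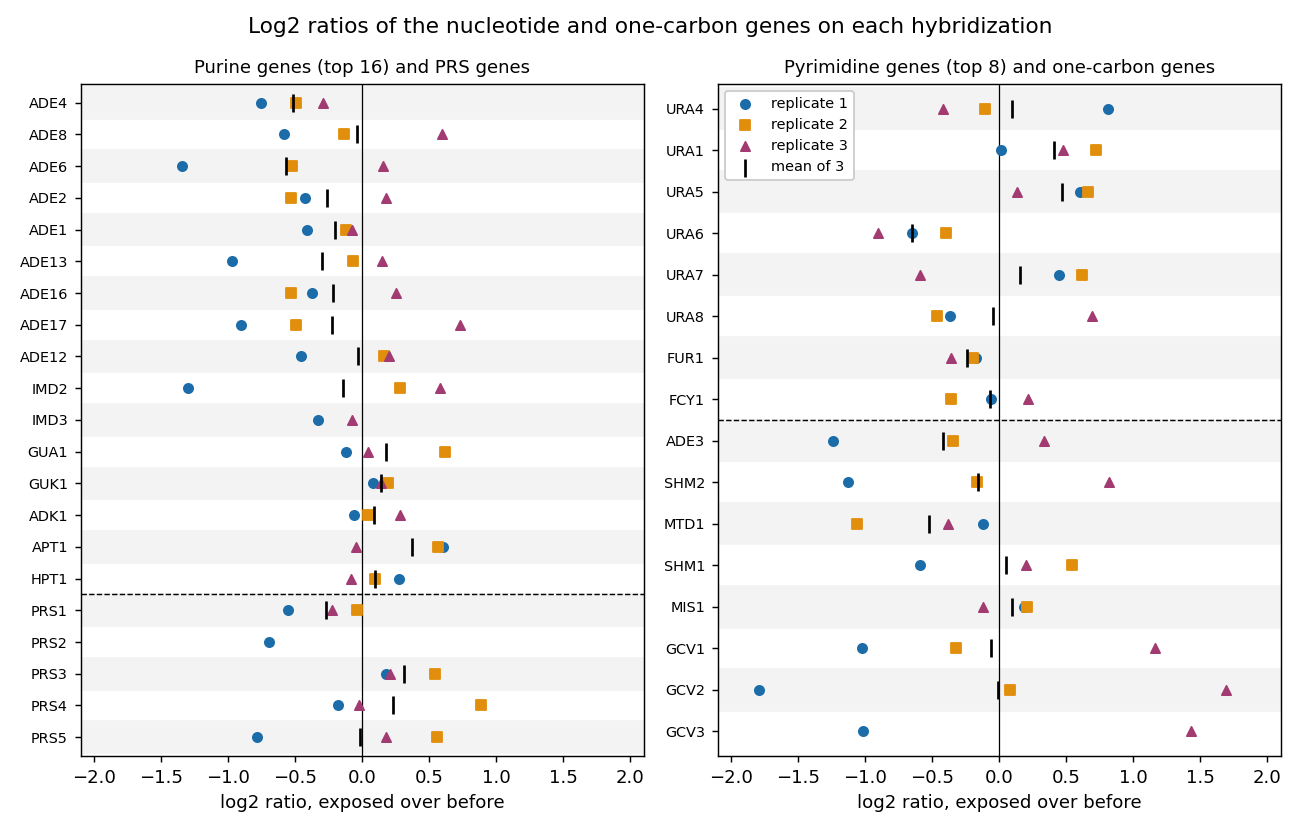
Log2 ratio of exposed over before (horizontal axis) for each of the 37 genes with a spot, one row a gene, with one point for each hybridization and a bar for the mean where all 3 had a value. Dashed lines part purine from PRS genes on the left and pyrimidine from one-carbon genes on the right. The blue points of replicate 1 lie far left for ADE6, IMD2, ADE3, SHM2 and the GCV genes, and the points of replicate 3 lie far right for the GCV genes.

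The genes that build IMP lay below 0 on replicates 1 and 2 and mostly above 0 on replicate 3. All 8 measured genes of these steps were negative on replicate 1 and on replicate 2, and 6 of the 8 were positive on replicate 3, where 47.9% of all genes were. From the high-power scan alone, 7 of the 8 were negative on replicate 2, where ADE13 read 0.02 at high and -0.15 at low power. On replicate 3 that scan alone left 1 of the 8 negative. The median of the 8 genes was -0.67, -0.50 and 0.17 on replicates 1, 2 and 3, and the median of their means was -0.24. All 8 means were negative, where 55.2% of all genes had a negative mean, and they ran from -0.57 for ADE6 to -0.04 for ADE8. The adjusted p ran from 0.804 to 0.982 (limma, 0 of 8 past the threshold). The group median was -0.12 when replicate 1 was left out, -0.18 when replicate 2 was and -0.50 when replicate 3 was.

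ADE4 (YMR300C), whose product moves the amide nitrogen of glutamine onto PRPP in the committing step, had log2 ratios of -0.76, -0.50 and -0.29. It lay below 0 on every hybridization, with a mean of -0.51 ± 0.23 or 1.43-fold lower, and did not pass (limma, adjusted p = 0.804). ADE1 (YAR015W), which encodes the enzyme that adds aspartate, had -0.41, -0.12 and -0.07 and was the other gene of these steps below 0 throughout. On replicate 3 ADE1 read 0.12 at high and -0.27 at low power, so its sign there depended on the scan. Over all genes, 16.1% were below 0 on every hybridization, against 6 of 34 here: ADE4, ADE1, PRS1, URA6, FUR1 and MTD1.

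ADE6 (YGR061C), for the glutamine-dependent synthase that follows the formylation of the glycine unit, had -1.34, -0.52 and 0.16. Replicate 1 was its extreme, 2.54-fold lower, and only 0.851% of all genes tested had a log2 ratio that low or lower there. ADE8 (YDR408C), for the formyl transferase just before it, had -0.58, -0.13 and 0.59. ADE2 (YOR128C), the carboxylase gene whose loss turns colonies red, had -0.43, -0.53 and 0.18, with replicates 1 and 2 close together and replicate 3 on the other side of 0. ADE13 (YLR359W), for the lyase that acts both in IMP synthesis and in the AMP branch, had -0.97, -0.07 and 0.15, so that its mean of -0.30 ± 0.59 rested on replicate 1 and was 0.04 without it.

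ADE16 (YLR028C) and ADE17 (YMR120C) encode isozymes of the last enzyme of IMP synthesis. ADE16 had -0.37, -0.53 and 0.25, and ADE17 had -0.90, -0.49 and 0.73. Both were positive on replicate 3 alone, and ADE17 had the wider span. ADE17 minus ADE16 was -0.53, 0.04 and 0.48, a mean difference of -0.0047 ± 0.50, so their average difference was far inside the spread between hybridizations. They are close copies, and cross-hybridization between their spots is possible.

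Past IMP, the branch genes ADE12, IMD2, IMD3 and GUA1 were negative on replicate 1, and all but IMD3 were positive on replicate 3. ADE12 (YNL220W), for the synthetase that opens the AMP branch, had -0.45, 0.16 and 0.20. IMD2 (YHR216W) encodes IMP dehydrogenase, the entry to GMP, and is known to be induced when guanine nucleotides run short. It had -1.30, 0.28 and 0.58. Its replicate 1 value stood apart from the others, and its SD of 1.01 exceeded that of 96.3% of genes tested or equalled it. IMD3 (YLR432W), an isozyme gene, lacked a value on replicate 2 and had -0.33 and -0.07 on replicates 1 and 3. IMD genes are close copies, so their spots cannot be assigned to a single copy with certainty. GUA1 (YMR217W), for GMP synthetase, had -0.12, 0.62 and 0.04 and was highest on replicate 2.

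The purine kinase genes GUK1 and ADK1 varied little. GUK1 (YDR454C), for guanylate kinase, had 0.08, 0.19 and 0.14, a mean of 0.14 ± 0.06 with a 95% confidence interval from -0.36 to 0.64. Only 1.24% of all genes tested had an SD as small or smaller. ADK1 (YDR226W), for adenylate kinase, had -0.06, 0.04 and 0.28. The salvage genes were above 0 on replicates 1 and 2 and just below 0 on replicate 3. There HPT1 read 0.03 at high and -0.20 at low power. APT1 (YML022W), for adenine phosphoribosyltransferase, had 0.60, 0.57 and -0.05, and HPT1 (YDR399W), which salvages hypoxanthine and guanine, had 0.27, 0.09 and -0.08. Their means were 0.38 ± 0.37 and 0.09 ± 0.18 (limma, adjusted p = 0.886 and 0.965).

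Over all 15 purine genes with 3 values the median was -0.43, -0.07 and 0.16 on replicates 1, 2 and 3, and 12, 8 and 4 of them lay below 0. Of these 15, 9 were lowest on replicate 1 and highest on replicate 3, where 19.5% of all genes were. No purine gene passed the test (0 of 15, adjusted p from 0.804 to 0.986, limma).

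**Figure D2:**
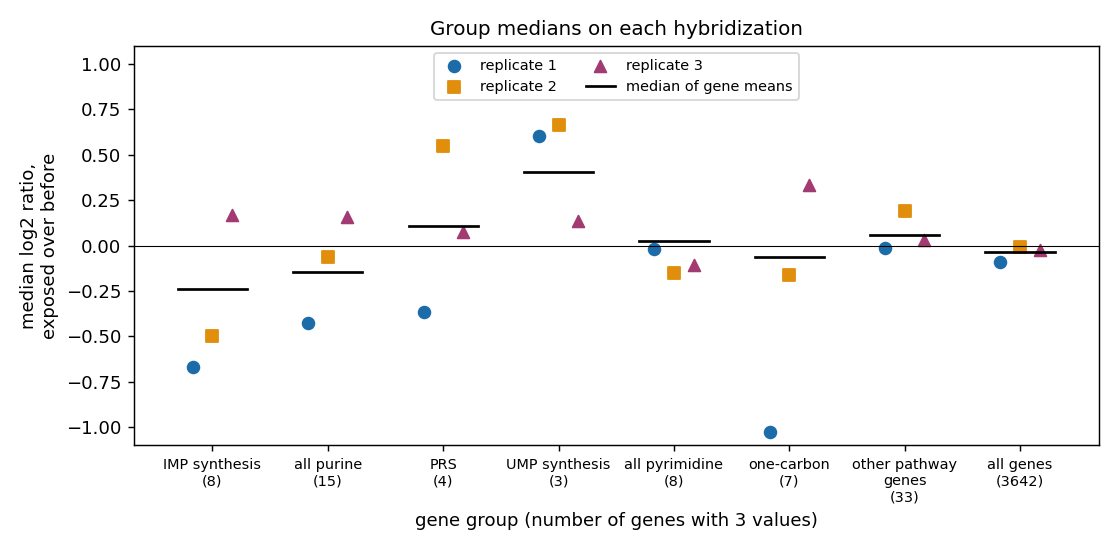
Median log2 ratio of exposed over before (vertical axis) for groups of genes with 3 values, the number of genes in brackets, with one point a hybridization and a line for the median of the gene means. The one-carbon median was -1.02 on replicate 1 and 0.33 on replicate 3, while the median of all 3642 genes stayed between -0.09 and -0.01.

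The PRS genes, which encode subunits of PRPP synthetase, differed in sign among themselves. PRS1 (YKL181W) had -0.55, -0.04 and -0.22, below 0 throughout. PRS3 (YHL011C) had 0.18, 0.54 and 0.21, above 0 throughout. PRS3 exceeded PRS1 on every hybridization, by 0.73, 0.58 and 0.43, a difference of 0.58 ± 0.15. That pair was picked after the values were seen, and with 3 hybridizations an exact sign-flip test cannot go below p = 0.25. On replicate 2 the high and low scans of PRS3 differed by 0.80, the widest gap of any member in any hybridization. PRS4 (YBL068W) had -0.18, 0.89 and -0.03, and PRS5 (YOL061W) had -0.79, 0.56 and 0.18, both highest on replicate 2. PRS2 (YER099C) had a value of -0.69 on replicate 1 alone. The 4 genes with 3 values had medians of -0.36, 0.55 and 0.08, and 0 of 4 passed (limma, adjusted p from 0.887 to 0.996).

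The measured genes of UMP synthesis had positive means, unlike the IMP genes. URA4 (YLR420W), for dihydroorotase, had 0.81, -0.10 and -0.42. URA1 (YKL216W), for dihydroorotate dehydrogenase, had 0.02, 0.72 and 0.48. URA5 (YML106W), for the major orotate phosphoribosyltransferase, had 0.60, 0.67 and 0.14. URA1 and URA5 were above 0 on every hybridization, as were GUK1 and PRS3, which makes 4 of 34 against 11.5% of all genes. On replicate 1, however, URA1 read -0.03 at high and 0.07 at low power, so its sign there depended on the scan. The means of URA1 and URA5 were 0.41 ± 0.36 and 0.47 ± 0.29, or 1.33-fold and 1.38-fold higher, and neither passed (limma, adjusted p = 0.855 and 0.822). URA4 went the other way on replicates 2 and 3, and its mean of 0.10 was -0.26 without replicate 1. The median of the 3 gene means was 0.41, and with any 1 hybridization left out it lay between 0.25 and 0.40.

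The genes that lead from UMP to UTP and CTP had means of either sign. URA6 (YKL024C), for uridylate kinase, had -0.65, -0.39 and -0.90, the lowest mean of the 34 genes. All 3 values were negative, with a mean of -0.65 ± 0.25 or 1.57-fold lower and a 95% confidence interval from -1.17 to -0.13. It did not pass (limma, unadjusted p = 0.0203, adjusted p = 0.677). Over other settings and with hybridizations left out, its mean ran from -0.78 to -0.52 and its unadjusted limma p from 0.0131 to 0.115, the last without replicate 3.

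URA7 (YBL039C) and URA8 (YJR103W), for the CTP synthetase isozymes, ran opposite to each other on every hybridization. URA7 had 0.45, 0.62 and -0.59, and URA8 had -0.37, -0.47 and 0.69. URA8 minus URA7 was -0.81, -1.09 and 1.29, so the sign of the difference turned on replicate 3 and its mean of -0.21 ± 1.30 was smaller than the spread. The salvage genes had smaller values. FUR1 (YHR128W), for uracil phosphoribosyltransferase, had -0.17, -0.19 and -0.36, and FCY1 (YPR062W), for cytosine deaminase, had -0.06, -0.36 and 0.21. FUR1 was below 0 on every hybridization at a small SD of 0.10 (adjusted p = 0.917, limma). Over the 8 pyrimidine genes with 3 values the medians were -0.02, -0.15 and -0.11, and 0 of 8 passed.

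Of the 4 pathway groups, the one-carbon genes had the widest spread between hybridizations. The median SD of the 7 genes with 3 values was 0.79, against 0.38 for purine, 0.42 for PRS and 0.32 for pyrimidine genes and 0.38 for all genes tested. Their medians were -1.02, -0.16 and 0.33 on replicates 1, 2 and 3, while the median of their means was -0.06. Of these 7, 6 lay below 0 on replicate 1 and 2 on replicate 3. Leaving out replicate 1 gave a median of the means of 0.33, leaving out replicate 2 gave -0.15, and leaving out replicate 3 gave -0.64. No gene passed (0 of 7, limma, adjusted p from 0.822 to 0.998).

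The genes of the mitochondrial glycine cleavage system, which splits glycine into a one-carbon unit, carbon dioxide and ammonia, spanned the widest ranges of all members with at least 2 values. GCV2 (YMR189W), for its decarboxylating P subunit, had -1.79, 0.08 and 1.70. That is 3.47-fold lower in exposed cells on replicate 1 and 3.24-fold higher on replicate 3, and the mean was -0.0047 ± 1.75. Its SD stood at percentile 99.6 of all genes tested. GCV1 (YDR019C), for the T subunit, had -1.02, -0.32 and 1.16. GCV3 (YAL044C), for the H subunit, had -1.01 and 1.44 on replicates 1 and 3 and no value on replicate 2. A fit of GCV3 on those 2 values, with replicate 2 dropped, gave a mean of 0.21 ± 1.73 (SD, n = 2; limma, adjusted p = 0.977). All 3 genes were more than 2-fold lower on replicate 1 and more than 2-fold higher on replicate 3. GCV1 and GCV3 only just passed 2-fold on replicate 1. There GCV1 had -0.998 with each scan centred, -0.92 with the hybridizations scaled and -0.77 with spot position taken out. From the low-power scan it had -0.990. GCV3 read -0.98 at high and -1.04 at low power there, and its value on replicate 3 came from the high-power scan alone. On replicate 1 the 3 genes lay at percentiles 0.110, 2.36 and 2.53 of the genes tested for GCV2, GCV1 and GCV3, and on replicate 3 at percentiles 99.3, 98.2 and 99.01.

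Repeat scans of these spots differed little. GCV2 read -1.74 at high and -1.85 at low power on replicate 1, and 1.81 and 1.59 on replicate 3. For all members the median gap between scans of a hybridization was 0.12 over 80 pairs of scans. After the median of each block of neighbouring spot numbers was taken out, GCV2 had -1.61, 0.14 and 1.63, and GCV1 had -0.77, -0.31 and 1.097. The means near 0 of GCV2 and GCV1 average values of opposite sign, and their confidence intervals were wide: from -1.21 to 1.20 for GCV2 and from -0.92 to 0.80 for GCV1.

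The cytosolic folate genes ADE3 and SHM2 took the same order at a smaller size. ADE3 (YGR204W), for the enzyme with several folate activities that feeds formyl groups to purine synthesis, had -1.24, -0.34 and 0.33. SHM2 (YLR058C), for cytosolic serine hydroxymethyltransferase, had -1.12, -0.16 and 0.82. Both were more than 2-fold lower on replicate 1 and positive on replicate 3. MTD1 (YKR080W), for the cytosolic NAD-dependent methylenetetrahydrofolate dehydrogenase, did not follow them: it had -0.12, -1.06 and -0.38 and was lowest on replicate 2. Its mean was -0.52 ± 0.49 (limma, adjusted p = 0.822).

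The mitochondrial counterparts spanned less. SHM1 (YBR263W), for mitochondrial serine hydroxymethyltransferase, had -0.59, 0.54 and 0.20, and MIS1 (YBR084W), the mitochondrial counterpart of ADE3, had 0.19, 0.21 and -0.12. SHM2 minus SHM1 was -0.54, -0.70 and 0.62, and ADE3 minus MIS1 was -1.43, -0.55 and 0.45. Each difference turned sign on replicate 3, with means of -0.21 ± 0.72 and -0.51 ± 0.94.

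**Figure D3:**
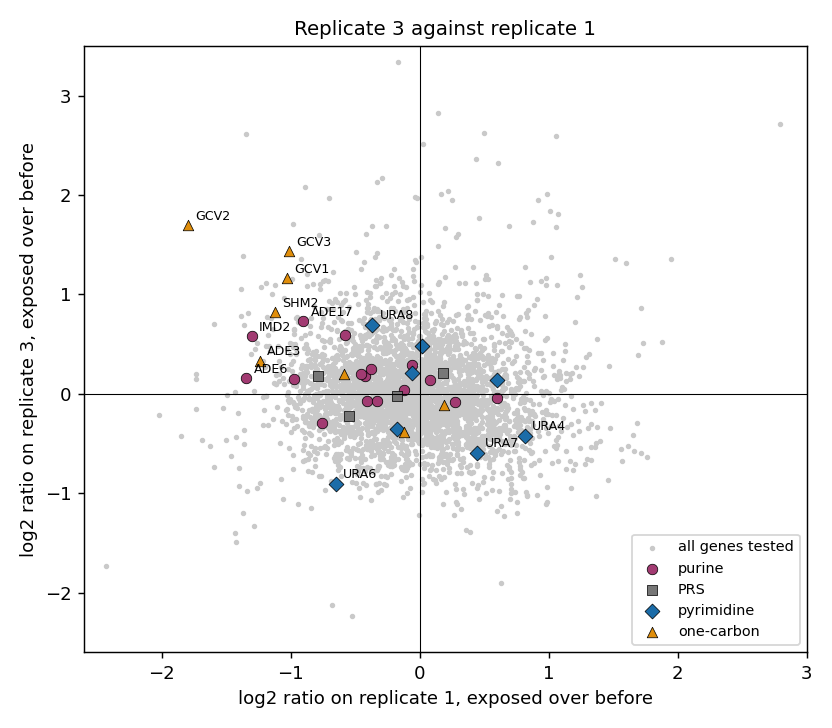
Log2 ratio of exposed over before on replicate 3 (vertical axis) against replicate 1 (horizontal axis), with the genes of each branch in colour over all 3642 genes tested in grey, GCV3 and IMD3 included although they lack a value on replicate 2. Of the labelled genes, GCV2, GCV3, GCV1, SHM2, ADE17, IMD2, ADE3, ADE6 and the pyrimidine gene URA8 lie in the upper left. They are below 0 on replicate 1 and above 0 on replicate 3. URA4 and URA7 lie in the lower right, as do the unlabelled purine genes APT1 and HPT1 and one-carbon gene MIS1.

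On replicate 1, 6 of the 34 genes were more than 2-fold lower: ADE6, IMD2, ADE3, SHM2, GCV2 and, by a narrow margin, GCV1. All are purine or one-carbon genes, and 2.64% of all genes tested were that low. No member was more than 2-fold higher there, where 2.83% of all genes were. MTD1 alone passed -1 on replicate 2, against 3.90% of all genes, and GCV1 and GCV2 alone passed 1 on replicate 3, against 3.19%. In all, 13 of 34 genes were lowest on replicate 1 and highest on replicate 3, 9 purine and 4 one-carbon genes, against 19.5% of all genes. No PRS or pyrimidine gene had that order, while 6 of the 33 other pathway genes described below had it. These counts were chosen after the values were seen and describe the genes without a test.

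Between branches, the difference of medians turned sign from one hybridization to another. Purine minus pyrimidine was -0.40, 0.08 and 0.26 on replicates 1, 2 and 3, a mean of -0.02 ± 0.35. One-carbon minus pyrimidine was -1.003, -0.01 and 0.44, a mean of -0.19 ± 0.74, and one-carbon minus purine was -0.60, -0.10 and 0.18, a mean of -0.17 ± 0.39. All 3 mean differences were smaller than their SD. The branches shared arrays, so these differences are not affected by a shift common to all genes of an array.

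Other genes of nucleotide, folate and serine metabolism were taken from a list of 46, of which 44 had a spot and 33 had 3 values. None passed (0 of 33, limma), and 3 had an unadjusted p under 0.05, all higher, where 2.77% of all genes were higher at that level. Those 3 are the uridine permease gene FUI1 (0.49, 1.22 and 0.56), the uracil permease gene FUR4 (0.46, 1.40 and 0.20) and the xanthine phosphoribosyltransferase gene XPT1 (0.56, 0.79 and 0.57). Their means were 0.76 ± 0.40, 0.69 ± 0.63 and 0.64 ± 0.13 (limma, adjusted p = 0.611, 0.785 and 0.653). All were above 0 on every hybridization, with both permeases highest on replicate 2, and without that replicate none of the 3 kept an unadjusted p under 0.05. The mean without it was 0.52 for FUI1 (limma, unadjusted p = 0.123), 0.33 for FUR4 (limma, unadjusted p = 0.318) and 0.56 for XPT1 (limma, unadjusted p = 0.0989). FUI1 and FUR4 also lost an unadjusted p under 0.05 in a one-sample test without moderation. FUR4, alone of the 3, lost it without replicate 1 as well (limma, unadjusted p = 0.0638). The other transport genes with a spot, named after their values were seen, had both signs. FUN26, a nucleoside transporter gene, had 0.28, 0.52 and 0.33, and the purine-cytosine permease gene FCY2 had 0.35, 0.93 and -0.11. TPN1 and FCY21, which encode relatives of that permease, were negative on replicate 1: TPN1 had -0.58, -0.22 and 0.16, and FCY21 had -0.91 and 0.15 on replicates 1 and 3.

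Among the 33 genes of that list with 3 values, the lowest means were those of SER1, for the transaminase of serine synthesis, and MET12, for a methylenetetrahydrofolate reductase. SER1 had -1.43, -0.14 and 0.01, and MET12 had -0.42, -1.08 and 0.11. The other genes of serine and glycine supply were named after their values were seen. SER3, for a dehydrogenase that opens serine synthesis, had -1.44 on replicate 1 and 0.40 on replicate 3, without a value on replicate 2, and its isozyme gene SER33 had -0.73, 0.07 and -0.20. SER2, for the phosphatase of the last step, had -0.30 and -0.25 on replicates 1 and 3. GLY1, for threonine aldolase, had -0.20, 0.52 and -0.15, and AGX1, for an aminotransferase that makes glycine, had 0.19 and 0.20 on replicates 1 and 3. The values on replicate 1 thus ran from -1.44 to 0.19 in these genes, and SER1 and SER3 alone of them were more than 2-fold lower. LPD1, which encodes the subunit that glycine cleavage shares with the keto acid dehydrogenases and was also chosen after its values were seen, had -0.89, -0.06 and -0.25 and was not above 0 on replicate 3.

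The regulators' own transcripts had values between -0.67 and 0.62. BAS1 had 0.28, 0.44 and -0.14, PHO2 had 0.18, -0.67 and 0.02, and GCN4 had -0.28, 0.62 and -0.0033. PPR1 had -0.41 and -0.14 on replicates 1 and 3 and none on replicate 2. None of the 3 with a value on every hybridization was lowest on replicate 1 and highest on replicate 3, where 19.5% of all genes were. With so few genes, that count does not set the regulators apart from GCV1 and GCV2, which had that order. Transcript ratios do not measure the activity of these factors.

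**Figure D4:**
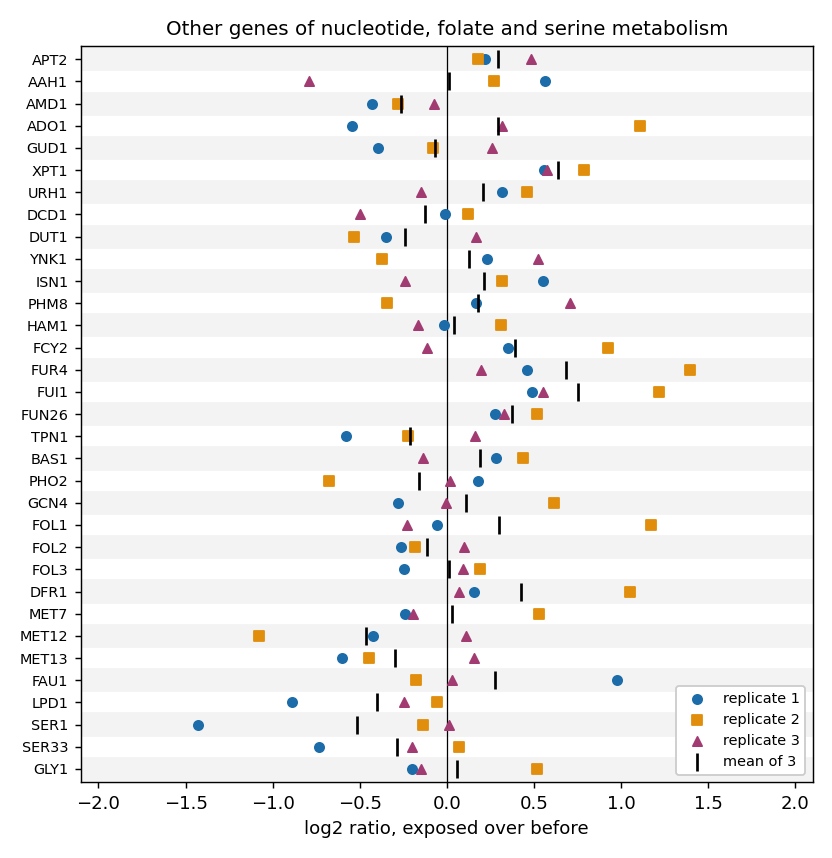
Log2 ratio of exposed over before (horizontal axis) for the 33 other genes of nucleotide, folate and serine metabolism with 3 values, one point for each hybridization and a bar for the mean. FUI1, FUR4, FUN26, XPT1, APT2 and DFR1 lie to the right of 0 on every hybridization, 6 of 33 against 11.5% of all genes. FUN26, APT2 and DFR1 were named after their values were seen. SER1 lies at -1.43 on replicate 1.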

How the data were processed

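The deposited values are log2 ratios per spot of two-colour cDNA arrays, which the authors LOWESS-normalized per scan using spots flagged 0, per the labels. How background was corrected is not stated there, nor are log base and direction. Since LOWESS centres the ratios at every intensity, these values cannot show a change shared by most transcripts. The table holds 6912 spots, 5513 with a gene in the platform annotation. Symbols were updated by gene ID through the RefSeq R64 gene table. A synonym counted only where no gene had the current symbol, since PRS3 and APT1 are also old names of PRE7 and TML25.

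High and low scans were averaged within each hybridization, since a rescan is no replicate, and then so were the spots of each gene. The mean of each gene with 3 values was compared with 0 in limma 3.58.1 under R 4.3.3 (eBayes, two-sided, Benjamini-Hochberg); the procedure was tested on simulated data. Branches were described by counts and medians. The members and lists were chosen with earlier results of these data known. Outside the 40 members, genes were named by rule (the 2 highest and 2 lowest means, an unadjusted p under 0.05, and BAS1, PHO2, PPR1 and GCN4), and the text marks any further gene as chosen on its values. Alternatives were either scan alone, spots with both scans, centring, scaling, spot position, each replicate left out, genes with at least 2 values, other moderation, and placing ADE3 or the PRS genes with the purine genes.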

Additional observations from a re-analysis of the deposited data

How the results depend on the processing

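Each array compares both RNAs directly, so the test of the log2 ratio against 0 already pairs exposed and before RNA within an array. All hybridizations form 1 group, which leaves no further pairing to use. Over the whole table the number of genes past the threshold was 2, and it became 4 over spots with a value in both scans (967 genes), 1 with spot position taken out and 0 in a one-sample test without moderation (192 at an unadjusted p under 0.05). With a replicate left out it ran from 0 to 12: 0 without replicate 1 (limma, 216 at an unadjusted p under 0.05), 1 without replicate 2 and 12 without replicate 3. Across 370 values of the 34 members under these settings 0 passed, and the lowest adjusted p was 0.349 (limma). The pyrimidine median of 0.02 became 0.13 with the high-power scan alone (7 genes), 0.19 with the low-power scan alone (3 genes) and 0.31 over spots with both scans (2 genes), and with a replicate left out it ran from -0.028 to 0.12. Purine minus pyrimidine (-0.02) became -0.43 from the low-power scan and -0.36 where both scans were required, and one-carbon minus pyrimidine (-0.19) became -0.63 and -0.52. Without replicate 1, purine minus pyrimidine was 0.17, one-carbon minus pyrimidine 0.21 and one-carbon minus purine 0.04, against -0.17. With ADE3 among the purine genes the one-carbon differences were -0.018 from pyrimidine and 0.01 from purine. The purine median ran from -0.36 to 0.12 and the one-carbon median from -0.64 to 0.33 with a replicate left out. With ADE3 among the purine genes these medians were -0.17 and -0.03, and with the PRS genes there the purine median was -0.04.

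The sign of an uncalled mean turned in 35 of the 370 values, for 17 of 34 members, 21 of them with a replicate left out. With the high-power scan alone ADE12 had 0.028, SHM1 -0.015 and GCV2 0.050, and with the low-power scan alone PRS5 had 0.033. Centring gave 0.0081 for GCV2. Scaling gave 0.0036 for ADE8, 0.018 for PRS5, 0.021 for GCV1 and 0.13 for GCV2. With spot position taken out ADE8 had 0.0076, ADE12 0.038, URA8 0.0043, GCV1 0.0045 and GCV2 0.051. With a replicate left out the means ran from -0.36 to 0.23 for ADE8, -0.52 to 0.041 for ADE13, -0.70 to 0.12 for ADE17, -0.14 to 0.18 for ADE12, -0.51 to 0.43 for IMD2, -0.041 to 0.33 for GUA1, -0.0086 to 0.16 for ADK1, -0.10 to 0.43 for PRS4, -0.30 to 0.37 for PRS5, -0.26 to 0.35 for URA4, -0.073 to 0.53 for URA7, -0.42 to 0.16 for URA8, -0.21 to 0.076 for FCY1, -0.64 to 0.33 for SHM2, -0.19 to 0.37 for SHM1, -0.67 to 0.42 for GCV1 and -0.86 to 0.89 for GCV2. The cause was not tested. Signal over background is unknown, so its limit on these values is unknown too.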
